A study of Mus musculus with 2 samples.

Results

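Bidirectional promoters are stretches from which a pair of neighbouring protein-coding genes is transcribed away from each other, and the 691 described here were accessible in both DNase-seq libraries of the mouse adrenal gland. They were taken from the 735 divergent pairs that the GENCODE M21 annotation (assembly mm10) holds on chromosomes 1 to 19, a pair being 2 protein-coding genes on opposite strands whose 5′ ends face away from each other and lie at most 1000 bp apart. Members were chosen by the peak lists themselves: the interval from 200 bp before the left 5′ end to 200 bp after the right one had to be overlapped by a peak in each library. That held for 691 of 735 pairs, or 94%, against 51.5% of all 20807 protein-coding 5′ ends with a peak within 200 bp in both libraries. The share is part of the selection and supports nothing by itself. The 691 pairs hold 1363 different genes, some of them in 2 pairs each, and their intervals form 672 separate stretches.

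The tissue came from female B6CASTF1/J mice aged 4 days, first-generation hybrids whose parental alleles were not separated here. The enzyme DNase I cleaves accessible chromatin, peaks are regions of frequent cleavage, and a footprint is a short stretch inside such a region that is protected from it. The labels call the libraries biological replicates 1 and 2 of a single group, give 3 females for each and the same donor identifier for both, and do not say how tissue was pooled. There is no second group, so no test between conditions was possible, and every value is a description of these 2 libraries. The number of reads behind a peak is unknown, and no counting error could be attached to its value. Replicate 1 holds 46031 peaks and 98364 footprints, and replicate 2 holds 87387 peaks and 141983 footprints. The label was checked by peaks within 1 kb of marker 5′ ends: 2 of 8 adrenal cortex markers (Nr5a1 and Fdx1) and 2 of 6 medulla markers (Chga and Chgb) had one in both libraries, against 0 of 4 for liver, 0 of 4 for leukocytes, 0 of 2 for erythroid cells, 1 of 4 for kidney (Lrp2) and 1 of 4 for endothelium (Flt1). The 5′ ends of Cyp11a1, Cyp11b1, Hsd3b1, Mc2r, Th, Dbh and Pnmt, which define cortex and medulla, had no peak in either library.

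In a bidirectional promoter, RNA polymerase II is loaded in opposite directions from start sites that share a nucleosome-poor stretch. In mammals such promoters are mostly CpG islands without a TATA box, they are bound by factors of the ETS, NRF1, NF-Y and SP families, and many serve genes for DNA repair, mitochondria, translation and RNA processing that most cells use. The neighbours often do unrelated work and share the stretch, not the pathway.

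The sequence between the 5′ ends, which is the part both genes share, is shown for 9 open pairs. It is printed on the forward strand of mm10 from the RefSeq copy of GRCm38.p6, holds no annotated exon, and is in lower case except for bases that lay in a footprint of both libraries. The first 7 are among the 10 pairs with the highest signal and show how much of a strong shared stretch can be protected. They are chr2:11777583-11777875 for Fbh1/Ankrd16, chr5:33629636-33629924 for Fam53a/Gm9903, chr10:91082771-91082939 for Apaf1/Ikbip, chr1:165460476-165460636 for Dcaf6/Mpc2, chr3:152210303-152210421 for Dnajb4/Fubp1, chr2:26910678-26910763 for Med22/Rpl7a and chr2:36049407-36049457 for Ndufa8/Morn5.

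Fbh1/Ankrd16: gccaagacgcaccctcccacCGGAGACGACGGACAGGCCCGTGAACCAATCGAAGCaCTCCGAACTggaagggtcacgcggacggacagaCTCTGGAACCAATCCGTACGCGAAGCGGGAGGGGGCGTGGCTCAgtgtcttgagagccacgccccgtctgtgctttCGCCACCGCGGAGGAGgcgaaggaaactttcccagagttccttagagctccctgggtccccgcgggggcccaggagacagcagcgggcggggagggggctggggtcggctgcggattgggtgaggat

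Fam53a/Gm9903: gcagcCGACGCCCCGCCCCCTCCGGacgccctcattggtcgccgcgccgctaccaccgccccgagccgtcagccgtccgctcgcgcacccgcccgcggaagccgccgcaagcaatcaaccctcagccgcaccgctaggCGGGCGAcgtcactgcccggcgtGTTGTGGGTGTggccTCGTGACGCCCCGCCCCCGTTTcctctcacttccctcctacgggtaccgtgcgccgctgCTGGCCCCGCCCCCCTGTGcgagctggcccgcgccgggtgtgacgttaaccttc

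Apaf1/Ikbip: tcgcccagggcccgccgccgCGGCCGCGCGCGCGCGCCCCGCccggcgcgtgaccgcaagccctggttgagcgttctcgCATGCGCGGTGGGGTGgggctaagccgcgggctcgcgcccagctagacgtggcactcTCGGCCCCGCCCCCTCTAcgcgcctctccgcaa

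Dcaf6/Mpc2: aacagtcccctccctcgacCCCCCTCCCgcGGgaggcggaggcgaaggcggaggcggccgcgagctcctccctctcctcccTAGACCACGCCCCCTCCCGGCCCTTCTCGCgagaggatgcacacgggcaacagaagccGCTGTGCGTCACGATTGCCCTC

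Dnajb4/Fubp1: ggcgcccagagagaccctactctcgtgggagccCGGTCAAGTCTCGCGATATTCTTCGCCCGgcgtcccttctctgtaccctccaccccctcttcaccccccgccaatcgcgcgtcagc

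Med22/Rpl7a: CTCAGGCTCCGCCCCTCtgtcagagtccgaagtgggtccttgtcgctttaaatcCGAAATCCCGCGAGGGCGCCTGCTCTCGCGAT

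Ndufa8/Morn5: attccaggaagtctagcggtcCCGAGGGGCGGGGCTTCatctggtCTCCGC

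The remaining 2, chr11:101551956-101552148 for Brca1/Nbr1 and chr7:28741821-28741991 for Mrps12/Sars2, are well-known bidirectional promoters of middling signal and had no base of this stretch in a footprint of both libraries.

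Brca1/Nbr1: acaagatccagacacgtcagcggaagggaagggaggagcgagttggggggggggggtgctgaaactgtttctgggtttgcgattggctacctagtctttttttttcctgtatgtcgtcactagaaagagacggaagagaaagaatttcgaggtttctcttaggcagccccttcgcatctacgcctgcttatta

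Mrps12/Sars2: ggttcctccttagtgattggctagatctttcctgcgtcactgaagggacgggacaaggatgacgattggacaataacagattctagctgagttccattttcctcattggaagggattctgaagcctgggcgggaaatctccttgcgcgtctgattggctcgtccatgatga

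In Fbh1/Ankrd16, 105 of the 293 bases lay in shared footprints, in Fam53a/Gm9903 79 of 289, in Apaf1/Ikbip 56 of 169 and in Med22/Rpl7a 49 of 86. In Hjurp/Trpm8, the pair of highest signal, whose stretch is not printed, 0 of 27 bases did. The 3 shared footprints of its interval lay outside that stretch. All 3 matches to the GC box (GGGGCGGGG, bound by SP and KLF factors) in the Fam53a/Gm9903 stretch, at positions 11, 185 and 240 counted from the left end, lay in footprints of both libraries. The match to the BANP element (TCTCGCGA) at position 42 of Dnajb4/Fubp1 and the one at position 78 of Med22/Rpl7a did so as well, as did the NRF1 core (GCATGCGC) at position 79 and the GC box at position 141 of Apaf1/Ikbip. In Mrps12/Sars2 the CCAAT boxes (AGCCAAT, bound by NF-Y) at positions 16 and 153 lay in no footprint of either library, and the E2F element (TTTCCCGC) at position 129 lay in a footprint of replicate 2. The strongest peaks of this pair lay to the right of the printed stretch, at chr7:28742101-28742320 in replicate 1 and chr7:28742161-28742320 in replicate 2. In replicate 1 the 92 bp of its interval under a peak all lay there, so no replicate 1 peak touched the stretch.

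Signal is the value the authors gave each peak, on a scale whose definition was not found in the labels or headers, and each pair takes the value of its strongest peak. Open pairs had a median signal of 2.66 in replicate 1 (quartiles 2.10 and 3.38, range 0.486 to 13.0) and of 5.57 in replicate 2 (quartiles 4.20 and 7.54, range 0.501 to 25.97). Replicate 2 gave the higher value in 690 of 691 pairs, with a median ratio of 2.10, and the exception, 1.34 in both and named after its values were seen, was Bola1/Hist2h2ab. Open single promoters were likewise higher in replicate 2 in 7052 of 7192 cases, with a median ratio of 2.01. The order of the pairs was similar: Spearman's coefficient between the libraries was 0.876 across the 691 pairs, which share their annotation and tissue and are no independent replicates. Of all peaks in the library, the top 10% had a signal above 2.65 in replicate 1 and above 4.34 in replicate 2. That level was passed by 50.4% of open pairs in replicate 1 and by 72.1% in replicate 2, against 30.8% and 45.9% of open single promoters.

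**Figure D1:**
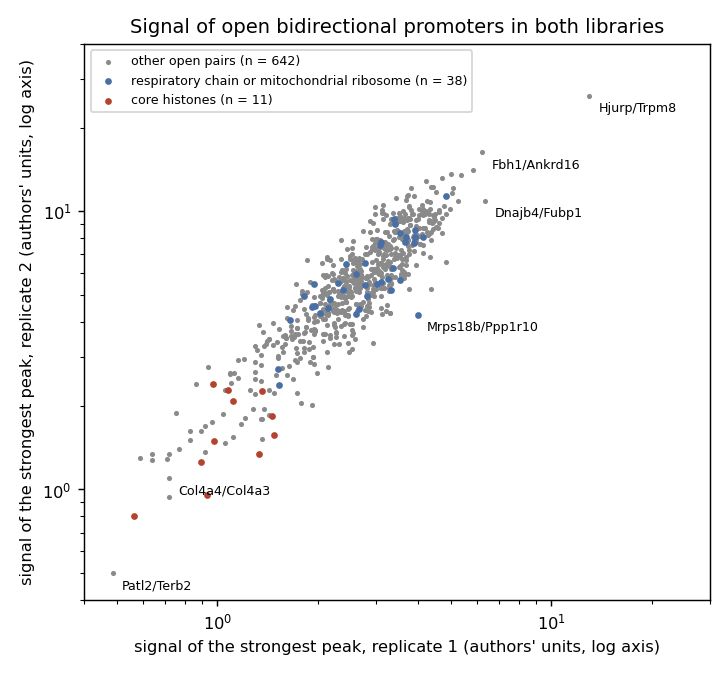
Signal of the strongest peak of each of the 691 open pairs in replicate 1 (x, authors' units, log axis) and replicate 2 (y, authors' units, log axis), 1 point a pair. The 11 open histone pairs lie in the lower left, Hjurp/Trpm8 in the upper right at 13.0 and 25.97, and Mrps18b/Ppp1r10 below the cloud at 4.00 and 4.26.

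Hjurp/Trpm8 ranked first in both libraries, at 13.0 and 25.97 signal units; Hjurp brings the histone variant CENP-A to centromeres and Trpm8 is a cold-sensing ion channel. Its 5′ ends lie 28 bp apart on chromosome 1, at 88277633 and 88277661, under the same 260 bp peak in both libraries, chr1:88277501-88277760. The next by mean rank was Fbh1/Ankrd16, a DNA helicase of the F-box family beside an ankyrin repeat gene, at 6.23 and 16.3. Dcaf6/Mpc2, where Mpc2 is a subunit of the mitochondrial pyruvate carrier, had 5.85 and 14.1. Only the first of these stood clear of the rest in both libraries: the second highest value was 6.35 in replicate 1 and 16.3 in replicate 2. The other 7 of the 10 strongest pairs were Fam53a/Gm9903, Pdhx/Apip, Med22/Rpl7a, Apaf1/Ikbip, Dnajb4/Fubp1, Mtrex/Dhx29 and Ndufa8/Morn5, with signals of 4.70 to 6.35 in replicate 1 and 10.9 to 13.6 in replicate 2. They include a component of pyruvate dehydrogenase (Pdhx), a Mediator subunit beside a ribosomal protein (Med22 and Rpl7a), the scaffold of the apoptosome (Apaf1), a pair of RNA helicases (Mtrex and Dhx29) and a complex I subunit (Ndufa8). None of the 10 belongs to steroid or catecholamine synthesis. Of all open pairs, only 3 hold a gene of the steroid and cholesterol list given below, and 0 one of the chromaffin list. This absence therefore does not set the 10 strongest pairs apart from the other open pairs.

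The weakest pair in both libraries was Patl2/Terb2, with 0.486 and 0.501; Patl2 is an RNA-binding protein of oocytes and Terb2 anchors telomeres in meiosis. Hist1h2ak/Hist1h2bn had 0.563 and 0.800, Bend6/Dst 0.716 and 0.941, Sirt1/Dnajc12 0.640 and 1.28, and Ppp1r3d/Fam217b 0.588 and 1.29. These 5 had no footprint shared by both libraries, and 4 of them, all but Bend6/Dst, lost a peak in at least 1 library when the authors' shorter peak lists were used. In all, 675 of the 691 pairs were open in the shorter lists too and 16 were not; 15 of those 16 had a mean rank of 636.5 or worse, and the other, named after its value was seen, was Med29/Paf1 at 542.

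The libraries ranked a few pairs differently. Mrps18b/Ppp1r10 ranked 69 in replicate 1 with 4.00 and 512.5 in replicate 2 with 4.26. Its strongest peak was a different one in each: chr17:35916601-35917060 in replicate 1 and chr17:35916341-35916580 in replicate 2. The others by this measure were Exosc8/Alg5 (33.5 and 394), Arfip2/Gm45799 (564.5 and 233.5), and Pms1/Ormdl1 and Pms1/Gm28778, which share a peak and so both ranks (192 and 499.5). In 671 of 691 pairs, or 97.1%, the strongest peaks of the libraries overlapped, and in 690 some pair of peaks did; the exception was Patl2/Terb2.

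Most open pairs were covered as a unit in each library taken alone, but not in both together. A single peak spanned both 5′ ends in 421 pairs (60.9%) in replicate 1 and in 384 (55.6%) in replicate 2, and 339 (49.1%) had such a peak in both. A peak lay over 1 of the 5′ ends and none over the other in 176 and 210 pairs, separate peaks lay over both in 55 and 63, a peak lay between them in 14 and 13, and the peak missed both and the stretch between them in 25 and 21. The strongest peak had a median width of 260 bp in replicate 1 and 220 bp in replicate 2, and its centre fell between the 5′ ends in 58.6% and 63.8% of pairs, a median of 47 and 43 bp from the midpoint. Within 200 bp of each 5′ end taken alone, 650 pairs (94.1%) had a peak at both ends in both libraries and 40 at 1 end. The remaining pair had a peak in both libraries at neither end alone.

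The distance between the 5′ ends, a median of 125 bp in open pairs (quartiles 64 and 238.5), went with how often a single peak spanned them. Among open pairs at most 50 bp apart, 89.4% had a spanning peak in replicate 1 and 91.1% in replicate 2. At 101 to 200 bp the shares were 65.8% and 56.0% of 184 pairs, at 201 to 400 bp 31.6% and 19.5% of 133, and at 401 to 1000 bp none of 78 had one. A peak of the median width, 260 bp in replicate 1 and 220 bp in replicate 2, cannot span ends over 400 bp apart. Separate peaks lay over both ends in 33.3% and 41.0% of the 78 widest pairs. Signal did not follow distance: the median ran between 2.59 and 2.73 in replicate 1 and between 5.38 and 5.84 in replicate 2 over all 5 distance classes. The share of pairs that were open lay between 88.6% at 401 to 1000 bp and 97.6% at up to 50 bp.

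Footprints were found in nearly all open pairs. In replicate 1, 687 of 691 intervals (99.4%) held at least 1, with a median of 5, and in replicate 2 681 (98.6%) did, with a median of 4. The 4 without one in replicate 1, named after their values were seen, were Surf4/Stkld1, S100a1/S100a13, Bloc1s3/Trappc6a and Rfng/Gps1. A footprint that overlapped between the libraries by at least 1 bp, called shared here, was present in 631 pairs (91.3%), 2.66 a pair on average, and 56.5% of the 3252 footprints of replicate 1 were shared. Where the overlap had to cover at least 50% of both footprints, 574 pairs had one. Footprints can overlap by 1 bp by chance, and how many would was not estimated. Of 44 closed pairs, 4 held a footprint in replicate 1, 6 in replicate 2 and 1, Mrpl54/Apba3, in both, and none held a shared one. Of 7192 open single promoters, 92.5% and 93.5% held one, and 75.2% a shared one, in an interval of 401 bp against a mean of 589 bp for open pairs.

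The most shared footprints, 8, were in Apaf1/Ikbip, Hnrnpa2b1/Cbx3, Klc4/Mrpl2 and Mms19/Ubtd1, and 7 were in Cep170/Sdccag8. Hnrnpa2b1 (an RNA-binding protein) and Cbx3 (heterochromatin protein 1 gamma) form a textbook example of a CpG island open in all tissues. Their interval held 10 footprints in replicate 1 and 9 in replicate 2. Klc4/Mrpl2, a kinesin light chain beside a mitochondrial ribosomal protein, held 8 and 9.

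Footprints covered more of the bases between the start sites than of those in the genes beside them. Between the 5′ ends of open pairs, 15.0% of bases in replicate 1 and 17.3% in replicate 2 lay in a footprint, against 6.49% and 6.84% in the first 200 bp of the genes to either side. Open single promoters had 11.2% and 13.1% in the 200 bp before the 5′ end and 6.56% and 6.53% in the first 200 bp of the gene. These shares count all bases, whether in a peak or not. The strongest peak was centred between the 5′ ends in 58.6% and 63.8% of open pairs. Of peak bases in open pairs, 15.9% and 20.02% lay in a footprint. Whether the contrast follows the position of the peaks was not tested. The median footprint of an open pair was 9 bp wide in replicate 1 and 10 bp in replicate 2.

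**Figure D2:**
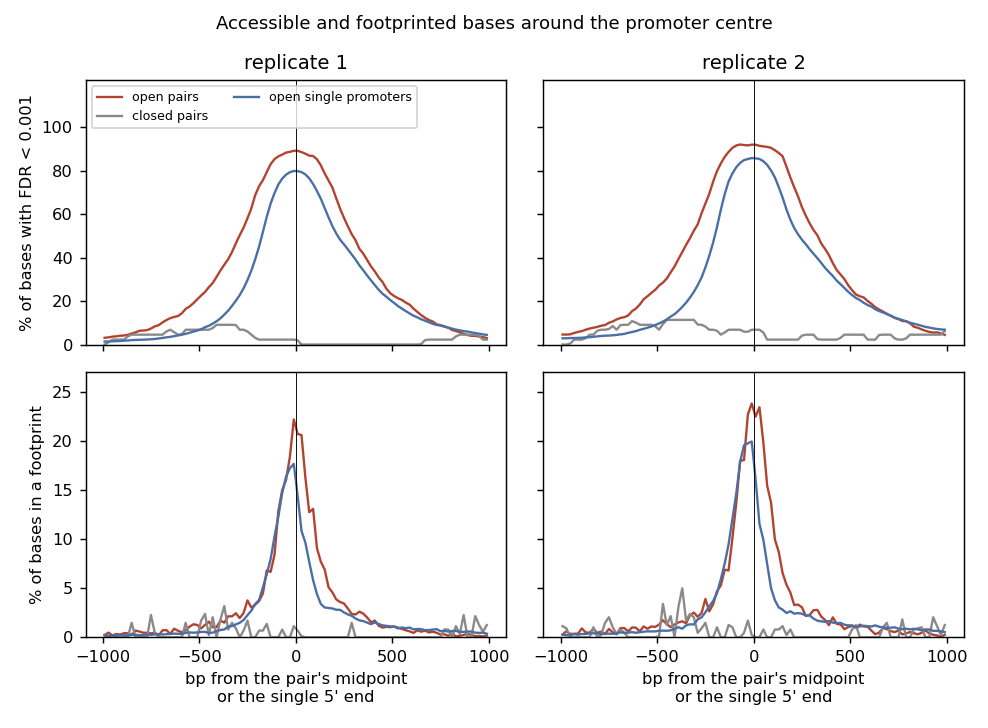
Share of bases below a false discovery rate (FDR) of 0.001 (top, %) and share in a footprint (bottom, %) in 20 bp bins, against distance in bp from a pair's midpoint or a single 5′ end (genes running to the right), for open pairs, closed pairs and open single promoters in each library. Open pairs reach 89.3% and 92.2% at the top and open single promoters 79.9% and 85.9%. The top curves of these sets cross on the right flank alone, and closed pairs have no central rise.

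The authors' lists of local false discovery rates gave the width of the open stretch without peak calls. Within 1 kb of the midpoint of an open pair, a median of 633 bp in replicate 1 and 700 bp in replicate 2 lay below a rate of 0.001, against 0 bp in both libraries for closed pairs and 456.5 and 527 bp for open single promoters. The plot of accessible bases around the centre shows where these bases lay. Peaks and rates come from the same cuts, so this is the same measurement in another form.

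More footprints went with more signal. In the 231 pairs of weakest mean rank, the middle 230 and the strongest 230, the mean number of shared footprints was 1.59, 2.74 and 3.65. Footprints per kb of peak numbered 11.03, 13.9 and 16.3 in replicate 1 and 11.96, 15.5 and 18.8 in replicate 2. Over all open pairs the density was 13.6 and 15.2 per kb of peak, against 12.3 and 13.7 in open single promoters. Between the quartiles of the pairs' signal, where signal was bounded on both sides, the density was lower in pairs. From the lower quartile to the median, open pairs had 12.25 per kb in replicate 1 and 13.96 in replicate 2, against 13.72 and 15.36 in open single promoters. From the median to the upper quartile, they had 15.01 and 16.95, against 15.52 and 17.44. The outer classes are open-ended, so signal was not matched in them. Above the upper quartile, open pairs had 16.8 and 19.4, against 17.8 and 20.1. Below the lower quartile, pairs were higher, with 10.9 and 11.3 against 9.42 and 10.4.

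Compared with single promoters, which here are protein-coding 5′ ends with no other annotated gene start within 1000 bp, the genes of divergent pairs were more often accessible. A peak lay within 200 bp in both libraries at 1321 of 1450 pair 5′ ends, 91.1%, and at 7192 of 16315 single 5′ ends, 44.1%. In replicate 1 the shares were 92.0% and 45.5%, and in replicate 2 92.7% and 48.8%, so the gap was far wider than the difference between the libraries. The 1450 ends belong to 735 shared stretches and are not independent, and all 735 pairs, open or closed, enter this comparison. At open ends, with the same window for both, the median signal was 2.62 in replicate 1 and 5.49 in replicate 2 for pair genes, against 2.00 and 4.01 for single promoters, a ratio of 1.31 and 1.37.

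**Figure D3:**
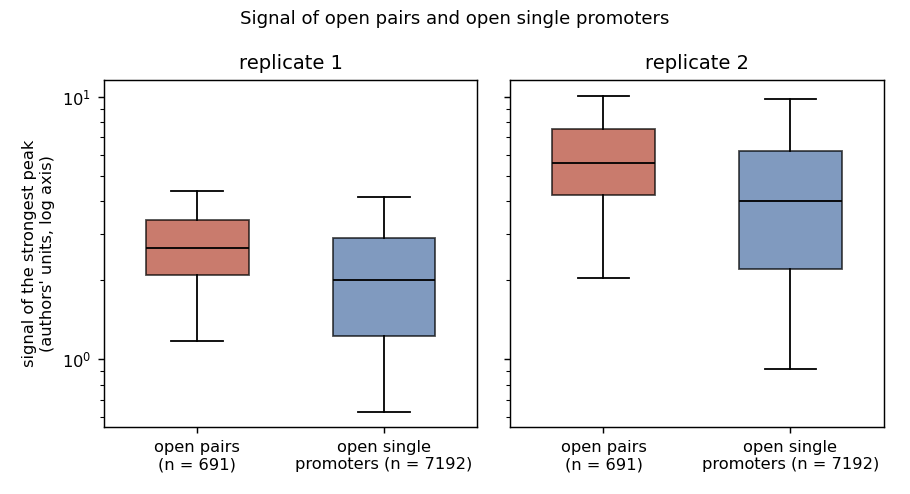
Signal of the strongest peak (authors' units, log axis) in open pairs and open single promoters, for each library; boxes show the quartiles with the median as a line, and whiskers the 5th and 95th percentiles. Open pairs have medians of 2.66 and 5.57, open single promoters of 2.00 and 4.01, and the lower ends differ more than the upper ends.

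The sets differed in base composition, and the gap was narrower in CpG-rich windows. The CpG observed/expected ratio, the number of CG dinucleotides over that expected from the C and G content, had a median of 0.862 in 300 bp windows of open pairs, 0.303 in closed pairs, 0.759 in open single promoters and 0.202 in closed single promoters. A ratio of at least 0.6, usual for a CpG island, was found in 89.0% of open pairs, 29.5% of closed pairs and 74.7% of open single promoters. In windows with a ratio of 0.9 or more, 98.2% of pair 5′ ends and 92.4% of single 5′ ends were open. From 0.6 to 0.9 the shares were 94.8% and 84.1%, from 0.3 to 0.6 77.8% and 41.4%, and below 0.3 24.3% and 4.66%. The lowest class holds only 35 pairs. The classes rest on unlike windows: around the midpoint of a pair, but from 250 bp before to 50 bp after a single 5′ end. In pairs 401 to 1000 bp apart the window reached neither 5′ end. Median signal in open pairs and open single promoters of the highest class was 2.83 and 2.45 in replicate 1 and 5.82 and 4.85 in replicate 2.

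**Figure D4:**
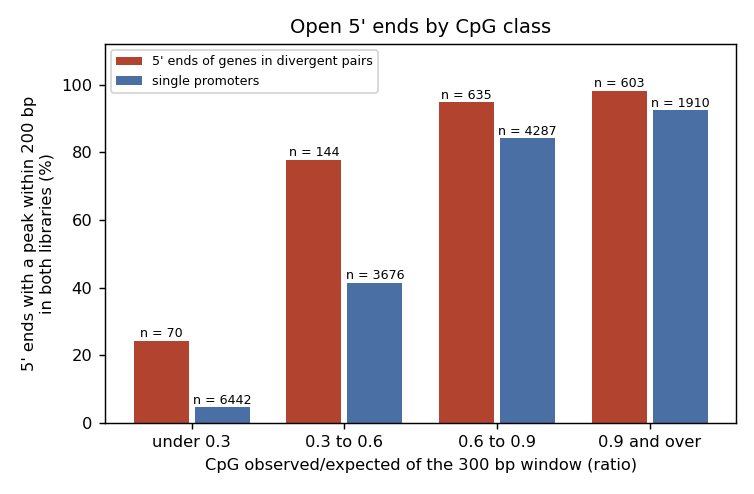
Share of 5′ ends with a peak within 200 bp in both libraries (%), for genes of divergent pairs and for single promoters, by CpG observed/expected ratio of the 300 bp window; bars start at 0 and n is the number of 5′ ends. Pair genes lie above single promoters in all 4 classes, by 98.2% to 92.4% in the highest and 77.8% to 41.4% in the class from 0.3 to 0.6. The window lies around the midpoint of a pair, but from 250 bp before to 50 bp after a single 5′ end.

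Matches were counted for 16 consensus strings, on both strands, in the 300 bp around the midpoint of a pair and from 250 bp before to 50 bp after a single 5′ end; matches could overlap. The GC box was the most frequent, in 21.7% of open pairs, 4.55% of closed pairs, 25.4% of open single promoters and 13.7% of all single promoters. The CCAAT box was in 14.8%, 15.9%, 10.9% and 8.29% in the same order, and the ETS element (CCGGAAGT) in 13.9%, 2.27%, 7.37% and 3.62%. The YY1 element (AAGATGGCG) was found in 5.93% of open pairs and 2.39% of open single promoters, the BANP element in 5.07% and 1.99%, the NRF1 core in 6.95% and 5.66%, and the cAMP response element (TGACGTCA) in 4.63% and 3.60%. The E-box (CACGTG) was in 76 open pairs and 793 open single promoters, and the TATA box (TATAAAA) in 2.32% and 2.29%. None of the strings was found in 34.4% of open pairs and 40.4% of open single promoters.

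Counted in CpG-rich windows alone, ratio 0.6 or more, the ETS element was in 15.1% of 615 open pairs and 8.45% of 5370 open single promoters, the YY1 element in 6.34% and 2.85%, the BANP element in 5.53% and 2.57%, and the GC box in 23.6% and 29.0%. The NR5A element (CAAGGTCA), bound by the adrenal regulator Nr5a1, was in 5 open pairs (0.724%) and in 1.13% of open single promoters. Among the 5 were Hadha/Hadhb, Nadsyn1/Dhcr7 and Sdhd/Timm8b, named after their values were seen. Only 1 NR5A match in open pairs lay inside peaks of both libraries, and by the rule given below it lay in no footprint of either. In open single promoters, 5 of 22 such matches lay in a footprint of replicate 1 and 3 in one of replicate 2. The GATA element (AGATAAG) was in 1.45% of open pairs and of open single promoters, and the AP-1 element (TGACTCA) in 2.32% and 2.96%. The ZNF143 element (ACTACAAT) was in 1.16% and 1.08%, the RFX element (GTTGCCAT) in 1.45% and 1.42%, the E2F element in 3.18% and 2.06%, and the CTCF core in 0.868% and 0.765%.

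Matches inside peaks of both libraries were then set against footprints; a match counted when at least 50% of its bases lay in one. In open pairs, 15.9% of peak bases in replicate 1 and 20.02% in replicate 2 lay in a footprint. NRF1 matches did so in 84.1% and 72.5% of 69, cAMP response elements in 76.7% and 86.7% of 30, GC boxes in 58.2% and 69.7% of 165, and BANP elements in 24 and 20 of 48. ETS matches followed with 32.6% and 34.9% of 86, CCAAT boxes with 23.9% and 39.8% of 88 and E-boxes with 23.8% and 33.3% of 63, and YY1 matches were near the level of all peak bases, 15.6% and 18.8% of 32. In open single promoters, where 13.9% and 17.0% of peak bases lay in a footprint, NRF1 reached 81.6% and 74.3% of 501 matches, the cAMP response element 67.3% and 75.6% of 217, and YY1 31.1% and 26.7% of 135.

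**Figure D5:**
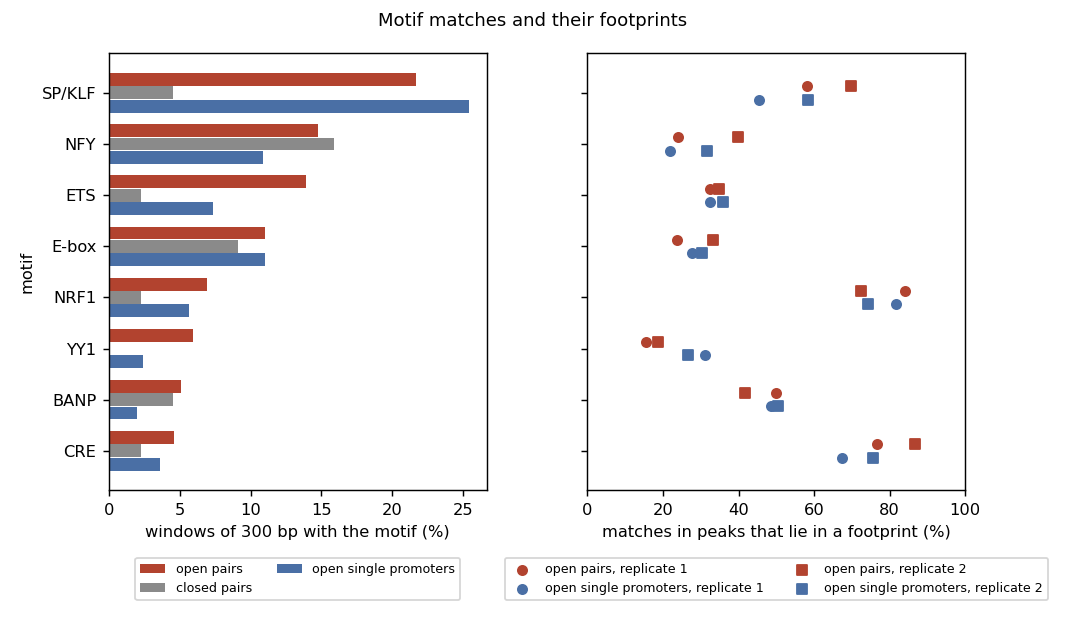
Left, share of 300 bp windows that hold a motif (%) in open pairs, closed pairs and open single promoters. Right, share of the matches inside peaks that lay in a footprint (%), circles for replicate 1 and squares for replicate 2; NRF1 matches in open pairs reach 84.1% and 72.5%, YY1 matches 15.6% and 18.8%.

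The motif content differed between signal classes. From the 231 weakest pairs over the middle 230 to the strongest 230, the GC box was in 15.2%, 23.0% and 26.96%, the NRF1 core in 3.90%, 7.39% and 9.57%, and the cAMP response element in 2.16%, 4.35% and 7.39%. The ETS element ran the other way, 16.0%, 15.2% and 10.4%, as did the AP-1 element, 4.33%, 1.74% and 0.870%. The median CpG ratio was 0.803, 0.885 and 0.882.

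By function, members of an open pair made up 6.55% of all protein-coding genes (1363 of 20807). Of 104 genes for DNA replication and repair, 27 (25.96%) were in an open pair and 2 in a closed one. Their open pairs had median signals of 2.93 and 5.70, against 2.66 and 5.57 for all open pairs. The open ones include Atm/Npat (3.98 in replicate 1 and 8.15 in replicate 2), Brca1/Nbr1 (2.40 and 4.39), Lig4/Abhd13 (4.61 and 9.97) and Palb2/Dctn5 (4.50 and 9.28). Atm is the kinase that signals DNA breaks, Brca1 and Palb2 act in homologous recombination, and Lig4 seals breaks in end joining. Mcm4/Prkdc joins a subunit of the replicative helicase to the kinase of end joining, at 2.87 and 7.12, and Prpf38a/Orc1 a splicing factor to the origin recognition complex, at 2.97 and 10.3. Rad51c/Tex14 was closed, with a peak of 0.614 in replicate 1 and none in replicate 2, and Pinlyp/Xrcc1 had no peak in either. Rad51c and Xrcc1 were each open in both libraries at another annotated transcript start, 431 and 861 bp away.

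Mitochondrial genes were the next large set. Of 100 respiratory chain genes 21 were in open pairs, with a median signal of 3.08 and 6.25, and of 78 mitochondrial ribosomal proteins 17 (21.8%), with 2.76 and 5.42. Ndufa8/Morn5 was the strongest of the chain, at 4.86 and 11.4. Rps28/Ndufa7 has its 5′ ends 10 bp apart, and its signal was 4.13 and 8.11. Among complex II genes, Sdha/Ccdc127 was open with 3.35 and 6.25 and Sdhd/Timm8b with 2.18 and 4.86; Timm8b also codes for a mitochondrial protein, an import chaperone. Ndufa5/Asb15 and Mrpl54/Apba3 were the closed pairs of these lists. Ndufa5 was open in both libraries at another annotated start 443 bp away, and Mrpl54 at none.

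RNA polymerase subunits and splicing factors had 15 of 64 genes in open pairs (23.4%), chaperones 14 of 81 (17.3%), the proteasome 7 of 47 (14.9%), aminoacyl-tRNA synthetases 5 of 34 (14.7%) and cytosolic ribosomal proteins 7 of 73 (9.59%). Dnajb4/Fubp1 was at 6.35 and 10.9, and Dnajb11/Tbccd1, with a chaperone of the endoplasmic reticulum, at 4.50 and 9.76. The 13 chaperone pairs had medians of 2.53 and 5.89, against 2.66 and 5.57 for all open pairs, and included Vipas39/Ahsa1 at 0.861 and 2.40 and Dnajc2/Psmc2 at 2.07 and 3.41. Med22/Rpl7a was at 5.09 and 12.1, while Rps27/Rab13 was at 1.78 and 2.04. Of the other lists, steroid and cholesterol synthesis had 3 of 38 genes in open pairs (7.89%), near the share of all genes. Below it were 2 of 42 collagens (4.76%), 18 of 385 Zfp zinc finger genes (4.68%) and 2 of 1514 odorant, pheromone and taste receptors (0.132%, Vmn1r4 and the taste receptor Tas1r1). The chromaffin list had 0 of 24 genes in open pairs, and the keratin and skin list 0 of 146. These shares mostly count how many members sit in a divergent pair at all: among genes in a pair, 94% were in an open one over all genes, 14 of 14 for chaperones, 3 of 3 for steroid and cholesterol synthesis, 90% for Zfp genes, 87.5% for cytosolic ribosomal proteins and 77.8% for core histones. The lists were described by counts only and were not tested.

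The 3 genes of the steroid and cholesterol list are Dhcr7, Mvk and Npc2, none of which is specific to the cortex. Dhcr7, the last enzyme of cholesterol synthesis, shares its promoter with Nadsyn1, and the signal was 4.54 and 8.78. Mvk, mevalonate kinase, shares one with Mmab, at 3.88 and 7.91 and with 6 shared footprints. Npc2, which moves cholesterol out of lysosomes, shares one with the iron-sulfur gene Isca2, at 2.98 and 5.27. The collagen pair Col4a4/Col4a3, basement membrane chains of the kidney glomerulus, was among the weakest at 0.716 and 1.10.

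Core histone genes had the highest share of the 15 lists in open pairs, 21 of 63 genes (33.3%) against 6.55% of all genes, and low signal. Their 14 pairs, nearly all an H2A gene facing an H2B gene, included 11 open ones, against 94% of all pairs. Their mean ranks ran from 644.5 to 690 of 691, and their signal spanned 0.563 to 1.48 in the first library and 0.800 to 2.40 in the second. At most 2 footprints were shared, and 6 of the 11 had none. Their median distance of 251 bp and median CpG ratio of 0.559 also differed from the 125 bp and 0.862 of all open pairs. Histone genes are near-identical copies, and how reads from copies were placed is not known here, so these values are uncertain; the effect of this was not tested. Hist1h2bq/Hist1h2ao, Hist1h2ap/Hist1h2br and Hist1h2ba/Hist1h2aa were closed. The heat shock genes Hspa1a/Hspa1l, related genes of 1 family, had 0.750 and 1.88.

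Of 18 divergent pairs known from the literature as bidirectional, 6 met the annotation rule and all 6 were open, near the 94% of all divergent pairs. Atm/Npat was the strongest of them and Col4a4/Col4a3 the weakest. Mrps12/Sars2, which joins a mitochondrial ribosomal protein to the mitochondrial seryl-tRNA synthetase, had 2.66 and 4.44 and no shared footprint. A further 11, such as Hspd1/Hspe1, Col4a1/Col4a2 and Surf1/Surf2, were not members because their annotated transcripts overlap at the 5′ ends, by 21 to 341 bp. Each of these 11 also had a peak in both libraries over the same kind of interval, where 93.1% of all pairs did once overlapping 5′ ends were allowed. In Gars/Crhr2 the annotated 5′ ends were 95009 bp apart.

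The 44 closed pairs were few and differed in kind. No peak of either library touched 33 of them, 5 had a peak in replicate 1 alone (Fbxo44/Fbxo2, Grik5/Zfp574, Mrpl54/Apba3, Rad51c/Tex14 and Bhmt2/Dmgdh) and 6 in replicate 2 alone. In 21 pairs at least 1 gene had a peak in both libraries within 200 bp of another annotated transcript start more than 400 bp away, so the gene was open at a start other than its outermost one. Examples chosen after their values were seen are Trim28, a corepressor, which was open 25038 bp from the 5′ end it shares with Slc27a5, Ostm1 95094 bp from the one it shares with Nr2e1, and Rnf14, Dgcr2 and Rps2, open 12098, 6869 and 1947 bp away. In 184 open pairs (26.6%) a gene was open at another start as well. Closed pairs with names other than Gm or Rik and the smallest distances were Mrpl54/Apba3 (26 bp), Best1/Rab3il1 (36 bp), Rnf151/Rps2 (53 bp), Ddx25/Pus3 (67 bp) and Dgcr2/Tssk2 (75 bp). Best1, an ion channel of the eye, Tssk2, a kinase of sperm cells, and Rnf151 and Ddx25, both of the testis, are genes of other tissues. Their partners Rab3il1, Dgcr2, Rps2 and Pus3 were open in both libraries at another annotated start, as was Apba3. Why the pairs were closed was not tested.

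The remaining 23 closed pairs had no such start. They include, named after their values were seen, Kirrel2/Nphs1, which join kidney podocyte genes, Duox2/Duoxa2, the thyroid oxidase and its maturation factor, Pecam1/Milr1, of endothelium and mast cells, and Smyd1/Cd8b1, of muscle and T cells. The nearest peak was 11807 bp from the Kirrel2/Nphs1 interval in replicate 1 and 11801 bp in replicate 2, and 15620 and 11177 bp from Pecam1/Milr1. Over all closed pairs, 12 had no peak within 10 kb in either library and 11 had one within 1 kb in both. A CpG ratio of at least 0.6 was present in 13.

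At the edge of the rule, the members with the smallest overlap were Miip/Fv1, whose peaks covered 65 bp of the interval in replicate 1 and 45 bp in replicate 2, Aimp2/Pms2 with 60 and 160 bp, and Anxa5/1810062G17Rik with 260 and 60 bp. The pairs missed most narrowly were Fbxo44/Fbxo2, overlapped by 19 bp in replicate 1 and missed by 1 bp in replicate 2, Mrpl54/Apba3, overlapped by 167 bp and missed by 13 bp, and Rad51c/Tex14, overlapped by 206 bp and missed by 113 bp. The signal of the peak in replicate 1 was 2.59 at Fbxo44/Fbxo2 and 2.96 at Mrpl54/Apba3, within the range of open pairs.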

How the data were processed

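Both DNase-seq libraries, labelled biological replicates 1 and 2 of neonatal adrenal tissue, were analysed; how animals were divided between them is not stated. Per the file headers and notes deposited with them, the authors made all files per library on mm10. Callers, filters and depth were not found in the labels or headers. The authors deposited 2 peak lists per library with a signal value per peak in column 7, and the longer was used. The deposited false discovery rates are adjusted p-values below 0.05, and every entry of the deposited footprint lists carries 0.01, taken as a p-value threshold.

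Pairs, single promoters and transcript starts came from GENCODE M21, sequence from the RefSeq copy of GRCm38.p6, the build of mm10. Overlap meant at least 1 bp. Coordinates are 1-based. Scripts in Python 3.11.15 with NumPy 2.4.6, SciPy 1.17.1, pandas 2.3.3 and Matplotlib 3.10.9 were tested on toy data with known answers (11 of 11 checks passed).

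Pairs named in the text are the 10 strongest and 5 weakest by mean within-library rank, the 5 with most shared footprints, the 5 whose ranks differ most, textbook pairs and members of the function lists, 3 pairs on either side of the threshold, and the 5 closest closed pairs with established names; other closed pairs, and the pairs said to be so, were named after their values were seen. A few pairs that the rule would name are not reported here. The members and lists were chosen with earlier results of these data known. No test was run: members were selected on the readout and there is 1 group.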

Additional observations from a re-analysis of the deposited data

How the results depend on the processing

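Shares moved with the window, and the gap between pairs and single promoters was present under each setting run. The count of 691 open pairs stayed within 1.5 times under 9 of 10 settings and came to 1098 of a larger set when pairs with overlapping 5′ ends were added; 631 with a shared footprint came to 993 then, and 627 was the lowest count of open pairs. The percentage of divergent pairs open was 91.8% with the shorter peak lists, 92.5% with at least 50% of the peak inside, 89.3% with a widening of 0 bp and 94.6% with 500 bp. It was 94.8% with a largest distance of 500 bp, 93.1% with overlapping 5′ ends, 93.7% with as many replicate 2 peaks as replicate 1 has, and 94.9% without Gm and Rik genes. Leaving out 1 library gave 94.7% to 94.8%.

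In the order of those 8 settings, pair 5′ ends were open in 88.4%, 82.8%, 68.6%, 93.4%, 93.6%, 86.0%, 90.4% and 91.9%, and in 92.0% to 92.7% with 1 library left out. Single promoters were open in 38.5% with the shorter lists, 39.3% with 50% of the peak inside, 32.3% and 47.4% with a widening of 0 and 500 bp, 41.8% with equal peak numbers, 46.9% where other gene types were allowed nearby, and 45.5% to 48.8% with 1 library left out. The ratio of median signals of open pairs to open single promoters, a mean of 1.36 over the libraries, was 1.23 with the shorter lists and 1.37 to 1.53 with 1 library left out. The median CpG ratio of 0.862 was 0.865 with the shorter lists, 0.877 in 200 bp windows and 0.861 with either library left out. The causes were not tested. Counts of spanning peaks and of pairs with a listed gene moved by less than 1.5 times. The median signal, a mean of 4.11 over the libraries, was 2.66 to 5.57 with 1 library left out. Depth is not known, so a missing peak does not show a closed promoter. No paired analysis was possible because there is 1 group.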
